A study of Arabidopsis thaliana with 72 samples.

Results

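CLE26 and CLE41 are genes of the CLE family of Arabidopsis, whose members encode short secreted peptides that signal between neighbouring cells. They are described here from the probe sets that the platform annotation assigns to 1 gene, and each has 1 such probe set, so they make up 2 of the 16550 genes measured that way. CLE26 is locus AT1G69970 on chromosome 1 and CLE41 is locus AT3G24770 on chromosome 3. No other annotated gene overlaps either locus in RefSeq TAIR10.1. All values are microarray intensities on a linear scale, in which a brighter probe set stands for more RNA of its gene.

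A CLE peptide is cut from a longer precursor and binds leucine-rich repeat receptor kinases on nearby cells. CLE41 and its relative CLE44 encode the peptide TDIF, which phloem cells release and which the receptor PXY (TDR) perceives on procambial cells, where it promotes division and holds back xylem differentiation. CLE26 is best known from the root, where its peptide suppresses protophloem differentiation when it is applied, as does that of CLE45.

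The study measured total RNA of wild-type Col-0 seedlings, raised on a Murashige and Skoog medium that held 0.5% sucrose, on 72 Arabidopsis Gene 1.0 ST arrays. Its 6 groups of 12 arrays were vasculature, mesophyll and whole leaf (whole cotyledons, per the labels) in long days (LD, 16 h light and 8 h dark) and the same tissues in short days (SD, 8 h light and 16 h dark). Each group was sampled every 4 h at Zeitgeber times ZT0 to ZT20 (hours after lights on), with 1 array per time at 10 days of age and 1 at 9 days. Per the labels, vasculature and mesophyll were freed with enzymes and sonication. The labels do not say that the arrays of a group came from separately grown plates, so the p-values weigh differences against a spread between arrays that may be technical.

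The tissue labels were checked with marker genes. The 4 phloem markers measured summed to 1216 to 3151 in LD vasculature, against 236 to 605 in LD mesophyll and 901 to 1706 in LD whole leaf. They summed to 2043 to 4237 in SD vasculature, against 121 to 651 in SD mesophyll and 689 to 1697 in SD whole leaf. The 7 mesophyll and photosynthesis markers summed to 1949 to 4732 in LD vasculature, against 7565 to 12650 in LD mesophyll. They summed to 1965 to 4545 in SD vasculature, against 6852 to 12440 in SD mesophyll. In veins SBPASE, PRK, ATPC1, HPR, LHCB4.1 and RCA were called lower than in mesophyll in both day lengths, with log2 differences of -2.94 (SBPASE) to -1.45 (RCA) in LD. Each of the 7 mesophyll markers was above 2.77, the value of the filter on dim probe sets, in over 6 of 12 vein arrays of each day length. Phloem markers in wider use, such as SUC2, were not analysed here. The median intensity of an array lay between 3.29 and 3.77. The LD whole leaf array of day 10 at ZT0 correlated least with its partner of the other day (Pearson's r = 0.969 over all probe sets, against 0.975 for the next pair). Without it no call on a mean level changed, while the rhythm call of CLE41 in LD whole leaf was lost (amplitude 0.53, limma adjusted p = 0.035).

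CLE26 was bright in veins, dim in whole leaf and near the floor of the arrays in mesophyll. In LD vasculature the lowest, median and highest of 12 arrays were 58.8, 380 and 724, against 2.43, 3.16 and 4.33 in LD mesophyll and 6.03, 9.84 and 16.2 in LD whole leaf. In SD vasculature they were 52.2, 252 and 398, against 2.78, 3.09 and 4.64 in SD mesophyll and 5.17, 9.50 and 17.2 in SD whole leaf. Every vein array lay above every whole leaf array, and every whole leaf array lay above every mesophyll array. The filter value of 2.77 was exceeded in 9 of 12 LD mesophyll arrays and in 12 of 12 arrays of each other group, so the mesophyll levels were close to background.

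CLE41 was also brightest in veins, but it was measured well above background in every tissue. In LD vasculature the lowest, median and highest values were 138, 226 and 512, against 12.2, 37.6 and 56.6 in LD mesophyll and 15.1, 33.4 and 44.0 in LD whole leaf. In SD vasculature they were 209, 261 and 411, against 13.9, 23.5 and 32.5 in SD mesophyll and 25.3, 44.0 and 50.2 in SD whole leaf. The vein arrays did not overlap with those of the other tissues, whereas mesophyll and whole leaf arrays overlapped in both day lengths. By mean log2 level the order of CLE26 was LD vasculature, SD vasculature, SD whole leaf, LD whole leaf, LD mesophyll and SD mesophyll. That of CLE41 was SD vasculature, LD vasculature, SD whole leaf, LD mesophyll, LD whole leaf and SD mesophyll. Neighbours within a tissue overlapped in both orders, and so did the last 4 groups of CLE41, each with the next.

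**Figure D1:**
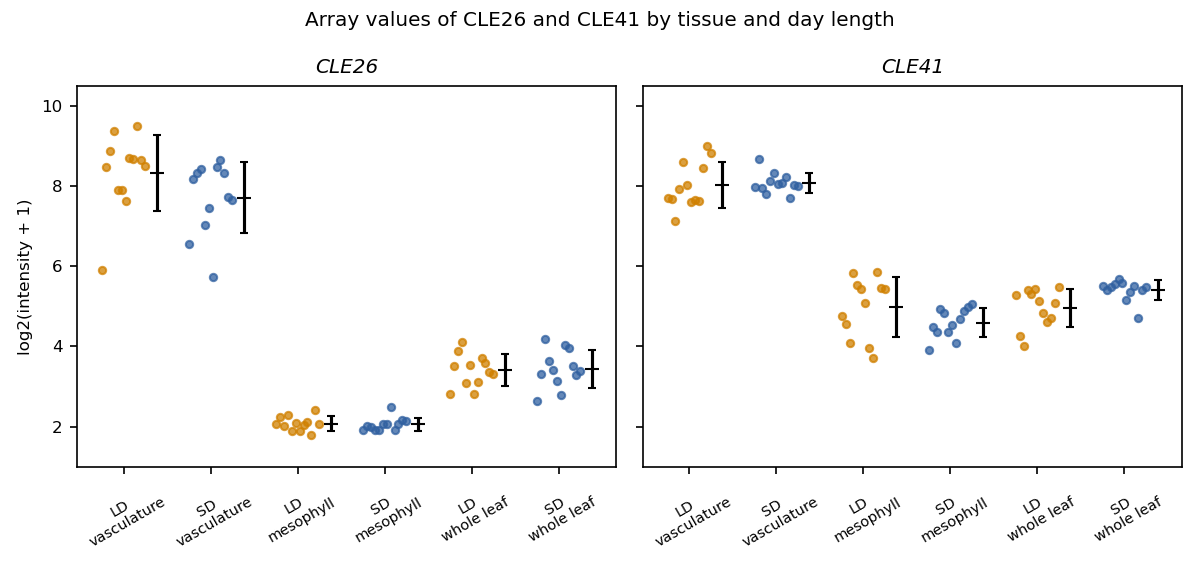
Array values of CLE26 and CLE41 in the 6 groups, as log2(intensity + 1); each point is 1 of 12 arrays, and the black marks give the mean ± SD. The vein arrays lie above all others for both genes, with CLE26 averaging 8.34 in LD and 7.71 in SD vasculature, and 2.07 in LD mesophyll.

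The difference between veins and mesophyll was tested with limma over all 21827 probe sets kept by the filter, on log2(intensity + 1) and averaged over the 6 times. A probe set was called when its adjusted p was under 0.05 and it differed by 1 or more. CLE26 was 6.27 ± 0.16 higher in LD vasculature than in LD mesophyll (SE, 12 arrays per group, 77.0-fold, limma adjusted p = 5.2e-16) and 5.66 ± 0.10 higher in SD (50.5-fold, limma adjusted p = 1.2e-16). CLE41 was 3.04 ± 0.11 higher in LD (8.24-fold, limma adjusted p = 4.4e-14) and 3.48 ± 0.10 higher in SD (11.2-fold, limma adjusted p = 4.5e-14). Both genes were higher at 6 of 6 times in each day length. By this call 25.5% of all probe sets differed in LD and 25.1% in SD, and 12.7% and 12.4% were higher in veins. Every vein array lay above every mesophyll array for 14% and 14.8%.

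Against that background CLE26 stood near the top of the list, at rank 88 of 21827 differences in LD and rank 82 in SD, and CLE41 at rank 586 and rank 374. With a pseudocount of 16, a setting added for the ranks after the values were seen, CLE26 stood at rank 103 in LD and rank 116 in SD, and CLE41 at rank 383 and rank 219. Both genes were named in earlier results of these data as higher in veins, so these ranks are a description. CLE26 is close to background in mesophyll, so its fold depends on the pseudocount. With 16 in place of 1 its difference was 4.16 in LD (17.8-fold) and 3.57 in SD (11.9-fold), still past the call. In tissue samples, fewer cells that express a gene and less RNA of it per cell cannot be told apart.

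Against whole leaf, veins gave the same direction. CLE26 was 4.94 ± 0.16 higher in LD vasculature (30.6-fold, limma adjusted p = 1e-13) and 4.28 ± 0.11 higher in SD vasculature (19.4-fold, limma adjusted p = 3.6e-16). CLE41 was 3.06 ± 0.12 higher in LD (8.34-fold, limma adjusted p = 1.4e-12) and 2.67 ± 0.09 higher in SD (6.38-fold, limma adjusted p = 2.4e-14). Of all probe sets 20.1% were called in LD, 9.12% being higher in veins and 11% lower, and 20.9% were called in SD, 9.59% being higher and 11.3% lower. Every array of LD veins exceeded every whole leaf array for 9.3% of probe sets, and every array of SD veins for 12.2%.

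The genes parted in mesophyll against whole leaf, a comparison in which 11.2% of probe sets were called in LD (5.46% lower in mesophyll) and 12.2% in SD (5.94% lower). CLE26 fell in mesophyll by 1.33 ± 0.09 in LD (2.51-fold, limma adjusted p = 8.5e-10) and by 1.38 ± 0.08 in SD (2.61-fold, limma adjusted p = 6.2e-10), with all mesophyll arrays below all whole leaf arrays, as for 5.07% of probe sets in LD and 6.74% in SD. With a pseudocount of 16 these differences were -0.42 and -0.45 and no longer reached the minimum of 1. CLE41 differed by 0.02 ± 0.10 in LD (95% interval -0.20 to 0.24, limma adjusted p = 0.9). In SD it differed by -0.81 ± 0.11 (limma adjusted p = 1.3e-05), lower at 6 of 6 times but under the minimum difference.

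In the same mesophyll samples a list of 9 early wound and digestion response genes was high (STZ, ABR1, CML37, CML38, PUB22, PUB23, ORA47, AR781 and OPCL1). Their summed intensity was 4649 to 7310 in LD mesophyll, against 208 to 609 in LD vasculature and 35.2 to 127 in LD whole leaf. It was 5539 to 7635 in SD mesophyll, against 444 to 1328 in SD vasculature and 28.1 to 62.1 in SD whole leaf. All 9 were called lower in veins than in mesophyll, as were 12.8% of all probe sets in LD and 12.6% in SD, and higher in mesophyll than in whole leaf, as were 5.77% and 6.24%. In veins against whole leaf 3 of the 9 were called higher in LD and 4 in SD, against 9.12% and 9.59% of all probe sets. The part of these 9 genes in the levels of CLE26 and CLE41 was not tested. The 3 epidermis and guard cell markers summed to 6.60 to 10.14 in LD vasculature, 6.54 to 8.38 in LD mesophyll and 24.2 to 44.4 in LD whole leaf, so both isolated tissues had little of them.

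Over the day CLE26 ran through a trough at ZT0 in veins and whole leaf. In LD vasculature the 2 arrays gave 58.8 and 196 at ZT0, 354 and 415 at ZT4, 410 and 468 at ZT8, 662 and 724 at ZT12, 239 and 399 at ZT16, and 237 and 361 at ZT20. In SD vasculature they gave 52.2 and 93.1 at ZT0, 291 and 358 at ZT4, 321 and 398 at ZT8, 319 and 344 at ZT12, 130 and 213 at ZT16, and 175 and 199 at ZT20. The lowest time was ZT0 in both, and the highest was ZT12 in LD, 6.38-fold above ZT0, and ZT8 in SD, 5.07-fold above ZT0 (these and later folds come from means of log2(intensity + 1)). In LD veins the brightest time came 4 h before lights off, and in SD veins at lights off. The SD vein arrays of ZT8 and ZT12 overlapped, however, and the fitted LD and SD courses in veins did not differ by the test below (limma adjusted p = 0.83).

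CLE26 in whole leaf had a similar course at a far lower level. In LD whole leaf the 2 arrays gave 6.03 and 6.08 at ZT0, 7.65 and 10.4 at ZT4, 12.1 and 13.7 at ZT8, 11.03 and 16.2 at ZT12, 7.53 and 9.25 at ZT16, and 8.92 and 10.6 at ZT20. In SD whole leaf they gave 5.17 and 5.88 at ZT0, 8.98 and 15.3 at ZT4, 14.5 and 17.2 at ZT8, 10.47 and 11.5 at ZT12, 8.73 and 9.58 at ZT16, and 7.87 and 9.42 at ZT20. ZT0 was again the lowest time in both day lengths. Mesophyll showed no course above its noise, with the means of the 6 times within 1.13-fold of each other in LD and 1.23-fold in SD.

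A cosine of 24 h was fitted to each group and tested with limma, with a call at an adjusted p under 0.03, the false discovery rate that the series' design gives for its own method. The amplitude is the distance of the fitted peak from the daily mean, in log2 units. CLE26 passed in SD whole leaf, where the amplitude was 0.49 ± 0.12 and the peak ZT 9.25 ± 0.94 h (SE, 12 arrays, limma adjusted p = 0.019). Of all probe sets 34.7% passed there. In SD vasculature the amplitude was 0.92 ± 0.23 with the peak at ZT 9.58 ± 0.95 h (limma adjusted p = 0.036, 14.5% of probe sets called). In LD vasculature it was 0.97 ± 0.25 with the peak at ZT 10.98 ± 0.97 h (limma adjusted p = 0.095, 3.16% called), and in LD whole leaf it was 0.41 ± 0.11 with the peak at ZT 10.7 ± 1.0 h (limma adjusted p = 0.062, 9.52% called). None of these 3 fits passed, although their amplitudes correspond to a 3.58-fold, a 3.84-fold and a 1.77-fold swing from trough to peak. In mesophyll the fitted amplitudes were 0.02 ± 0.08 in LD (limma adjusted p = 0.99, 13.3% called) and 0.06 ± 0.07 in SD (limma adjusted p = 0.83, 12% called). The clock gene GI, fitted in the same way as a check of the time labels, passed in all 6 groups with peaks between ZT 5.67 and ZT 8.37. COR27, also fitted for that check, passed in LD vasculature, SD vasculature and SD whole leaf. It did not pass in LD whole leaf (amplitude 1.74, limma adjusted p = 0.06), LD mesophyll (2.08, limma adjusted p = 0.051) or SD mesophyll (2.85, limma adjusted p = 0.04). Amplitudes of that size thus missed the call in those COR27 fits, and why the CLE26 fits missed it was not tested.

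The CLE26 calls were sensitive to single sampling points and to the shape that was fitted. In SD whole leaf the call held in 7 of 12 fits that each left out 1 array. It was lost without the day 9 arrays of ZT0 (0.43, adjusted p = 0.034) or ZT8 (0.44, adjusted p = 0.061) or the day 10 arrays of ZT0 (0.45, adjusted p = 0.041), ZT8 (0.49, adjusted p = 0.05) or ZT16 (0.49, adjusted p = 0.03, just over the threshold before rounding), all from limma. In SD vasculature a limma test with the 6 times as separate levels passed, with an amplitude of 1.17 taken from the lowest and highest time means (adjusted p = 0.0011). The fit without both ZT0 arrays, added after the values were seen, also passed there (0.58, limma adjusted p = 0.0097), and so did those without the day 10 arrays of ZT0 (0.72, adjusted p = 0.03, just under the threshold before rounding) or ZT20 (1.08, adjusted p = 0.024). In LD vasculature no fit passed. The limma adjusted p there was 0.065 to 0.26 over 8 other settings and 0.064 to 0.19 over 12 fits that each left out 1 array.

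CLE41 had its daily course in long days, in all 3 tissues, with the trough in the light at ZT8. In LD vasculature the 2 arrays gave 194 and 207 at ZT0, 202 and 203 at ZT4, 138 and 197 at ZT8, 245 and 347 at ZT12, 386 and 512 at ZT16, and 261 and 452 at ZT20. In LD mesophyll they gave 26.1 and 33.1 at ZT0, 14.6 and 22.5 at ZT4, 12.2 and 16.1 at ZT8, 56.4 and 56.6 at ZT12, 43.1 and 45.0 at ZT16, and 42.0 and 42.3 at ZT20. In LD whole leaf they gave 34.0 and 37.7 at ZT0, 18.1 and 27.5 at ZT4, 15.1 and 23.5 at ZT8, 25.3 and 41.2 at ZT12, 32.8 and 38.5 at ZT16, and 41.8 and 44.0 at ZT20. The highest time was ZT16 in veins, at lights off, ZT12 in mesophyll and ZT20 in whole leaf, and it lay 2.68-fold, 3.84-fold and 2.21-fold above ZT8.

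In short days the values of CLE41 spanned a narrower range. In SD vasculature the 2 arrays gave 250 and 263 at ZT0, 270 and 411 at ZT4, 246 and 298 at ZT8, 209 and 222 at ZT12, 259 and 277 at ZT16, and 256 and 318 at ZT20. In SD mesophyll they gave 13.9 and 22.3 at ZT0, 15.9 and 21.6 at ZT4, 19.6 and 24.8 at ZT8, 28.4 and 29.4 at ZT12, 27.8 and 30.4 at ZT16, and 19.6 and 32.5 at ZT20. In SD whole leaf they gave 34.5 and 44.6 at ZT0, 40.1 and 41.7 at ZT4, 44.0 and 44.5 at ZT8, 25.3 and 45.8 at ZT12, 41.5 and 50.2 at ZT16, and 44.0 and 46.7 at ZT20. The highest time lay 1.54-fold above the lowest in SD vasculature, 1.61-fold in SD mesophyll and 1.33-fold in SD whole leaf.

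**Figure D2:**
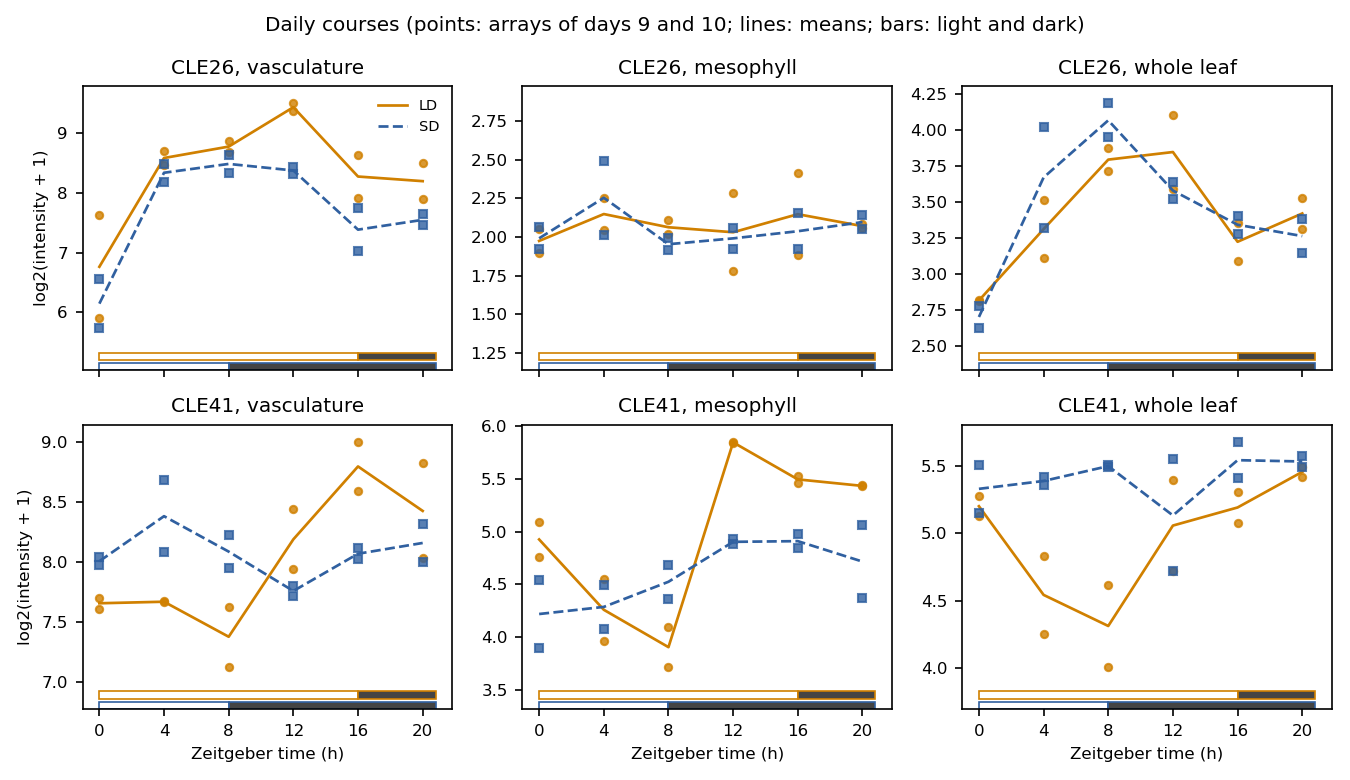
Daily courses of CLE26 (top) and CLE41 (bottom) in vasculature, mesophyll and whole leaf, as log2(intensity + 1) against Zeitgeber time in h; points are single arrays, lines join the means of the 2 arrays in LD (solid) and SD (dashed), bars mark light and dark, and the vertical scale differs between panels. CLE26 has its trough at ZT0 in the veins and whole leaf of both day lengths, while CLE41 has its trough at ZT8 in the 3 LD tissues.

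The cosine fits of CLE41 passed in all 3 LD tissues and in none of the SD tissues. The amplitude was 0.66 ± 0.12 in LD vasculature with the peak at ZT 16.9 ± 0.72 h (SE, 12 arrays, limma adjusted p = 0.025). It was 0.84 ± 0.17 in LD mesophyll with the peak at ZT 16.8 ± 0.76 h (limma adjusted p = 0.014) and 0.53 ± 0.12 in LD whole leaf with the peak at ZT 18.9 ± 0.83 h (limma adjusted p = 0.027). In SD it was 0.16 ± 0.09 in vasculature (limma adjusted p = 0.45), 0.38 ± 0.10 in mesophyll with the peak at ZT 14.5 ± 1.0 h (limma adjusted p = 0.063) and 0.07 ± 0.10 in whole leaf (limma adjusted p = 0.85). The call in LD mesophyll held in 10 of 12 fits that each left out 1 array, and was lost without the array of day 9 at ZT8 (0.79, adjusted p = 0.031) or of day 10 at ZT4 (0.80, adjusted p = 0.042). Those in LD vasculature and LD whole leaf held in 1 of 12 such fits each, the one without day 9 at ZT20 in veins (0.73, adjusted p = 0.017) and the one without day 9 at ZT12 in whole leaf (0.58, adjusted p = 0.0098). Without each other array the limma adjusted p reached up to 0.074 and 0.07 while the amplitude stayed between 0.58 and 0.72 and between 0.44 and 0.58.

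The change of the CLE41 course with day length was tested directly. In vasculature the LD and SD fits differed by a vector of length 0.78 on the log2 scale (24 arrays, limma adjusted p = 0.023, 5.24% of all probe sets called). In whole leaf the vector was 0.47 (limma adjusted p = 0.15, 6.62% called) and in mesophyll 0.56 (limma adjusted p = 0.22, 2.31% called, or 0.234% without ZT16 of day 10), so the difference passed in veins only, and whether it is larger there was not tested. The call in veins was lost on leaving out ZT16 of day 9 (0.83, adjusted p = 0.051) or of day 10 (0.72, adjusted p = 0.077), and held in the other 10 of 12 such fits. For CLE26 the LD and SD courses did not differ beyond the spread in vasculature (0.35, limma adjusted p = 0.83), mesophyll (0.08, limma adjusted p = 0.89) or whole leaf (0.19, limma adjusted p = 0.75).

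Veins and mesophyll were compared in the same way. In LD the vector between vein and mesophyll courses was 0.95 for CLE26 (limma adjusted p = 0.08) and 0.18 for CLE41 (limma adjusted p = 0.87), with 7.14% of all probe sets called. In SD it was 0.96 for CLE26 (limma adjusted p = 0.062) and 0.54 for CLE41 (limma adjusted p = 0.059), with 6.13% called. None of the 4 passed the threshold of 0.05 with all arrays. CLE26 in mesophyll was close to background, with fitted amplitudes of 0.02 in LD and 0.06 in SD. Its vectors thus mostly repeat the vein courses, with amplitudes of 0.97 in LD and 0.92 in SD. Without ZT20 of day 10 the CLE26 difference passed in LD (1.10, limma adjusted p = 0.048) and in SD (1.10, limma adjusted p = 0.043), and without ZT0 of day 10 that of CLE41 passed in SD (0.62, limma adjusted p = 0.042). As values, the log2 difference of veins over mesophyll for CLE26 lay between 4.79 at ZT0 and 7.41 at ZT12 in LD and between 4.15 at ZT0 and 6.53 at ZT8 in SD, and for CLE41 between 2.35 at ZT12 and 3.47 at ZT8 in LD and between 2.86 at ZT12 and 4.097 at ZT4 in SD.

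**Figure D3:**
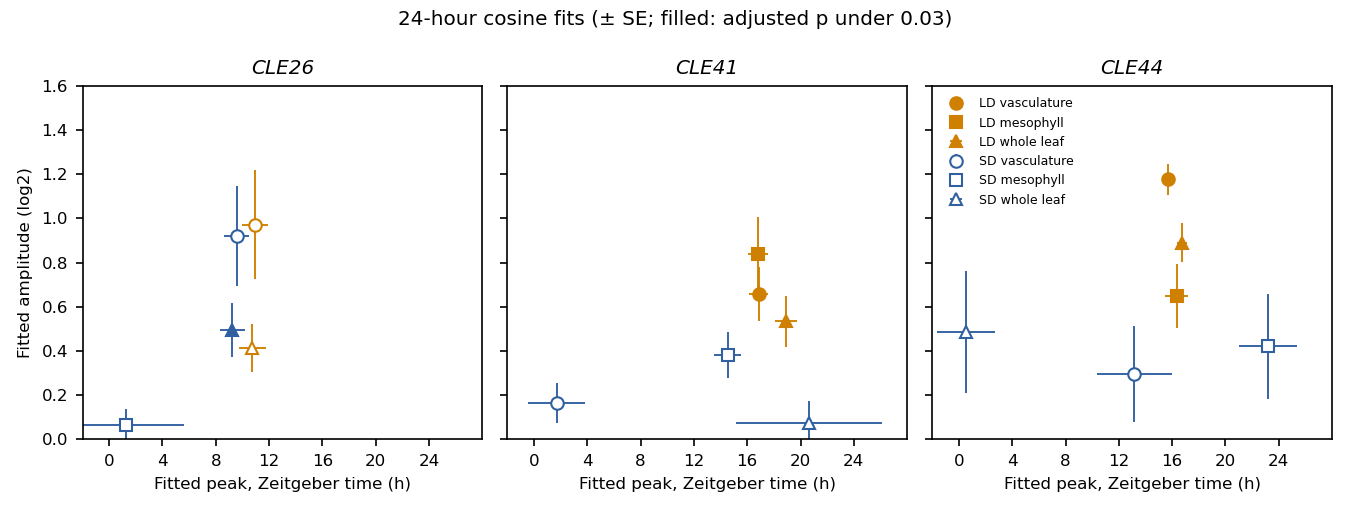
Fitted amplitude (log2) against fitted peak (Zeitgeber time in h) of 24 h cosine fits for CLE26, CLE41 and CLE44, with bars of 1 SE and filled symbols where the adjusted p was under 0.03; the CLE26 fit in LD mesophyll is left out because its peak is not determined (SE 17.5 h). The fits of CLE26 in veins and whole leaf peak between ZT 9.25 and ZT 10.98, and those of CLE41 in LD between ZT 16.8 and ZT 18.9.

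Day length changed the mean levels little beside the tissue differences, and no mean difference of either gene between LD and SD passed the call. CLE26 was 0.63 ± 0.17 higher in LD than in SD vasculature (1.54-fold, higher at 6 of 6 times, limma adjusted p = 0.012), under the minimum difference of 1 that 1.48% of probe sets passed. In mesophyll it differed by 0.02 (95% interval -0.15 to 0.19, limma adjusted p = 0.91, 1.22% called) and in whole leaf by -0.03 (95% interval -0.22 to 0.15, limma adjusted p = 0.77, 1.86% called). CLE41 differed by -0.06 in vasculature (95% interval -0.28 to 0.16, limma adjusted p = 0.72), by 0.38 ± 0.11 in mesophyll (higher at 4 of 6 times, limma adjusted p = 0.019) and by -0.44 ± 0.11 in whole leaf (lower at 6 of 6 times, limma adjusted p = 0.005).

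At single times, with 2 arrays per group, 1 of 36 contrasts of LD against SD passed the call. From ZT0 to ZT20 the share of all probe sets called was 1.72, 1.34, 2.29, 4.54, 6.08 and 1.35% in vasculature. It was 0.825, 1.02, 2.96, 6.08, 6.6 and 0.646% in mesophyll, and 3.61, 2.9, 4.82, 6.37, 8.75 and 2.69% in whole leaf. The largest shares thus came at ZT16, at lights off in LD. At ZT8 in whole leaf CLE41 gave 15.1 and 23.5 in LD, against 44.0 and 44.5 in SD, and so fell in LD by 1.19 ± 0.27 (2.28-fold, limma adjusted p = 0.0081). With a pseudocount of 16 the difference was -0.78 and under the minimum. At ZT12 in mesophyll CLE41 gave 56.4 and 56.6 in LD, when lights were on, against 28.4 and 29.4 in SD, when they were off. The difference of 0.94 ± 0.26 (limma adjusted p = 0.029) was just under the minimum. In vasculature CLE26 gave 662 and 724 in LD at ZT12, against 319 and 344 in SD, a difference of 1.06 ± 0.42 (limma adjusted p = 0.12). CLE41 gave there 386 and 512 in LD at ZT16, against 259 and 277 in SD, a difference of 0.73 ± 0.26 (limma adjusted p = 0.069). These last 2 differences did not pass the test.

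The vein excess itself was compared between day lengths, and both shifts lay close to the threshold. For CLE26 the difference of vasculature over mesophyll was larger in LD than in SD by 0.61 ± 0.20 (48 arrays, 95% interval 0.20 to 1.01, limma adjusted p = 0.036). For CLE41 it was smaller in LD by 0.44 ± 0.15 (-0.44, 95% interval -0.76 to -0.13, limma adjusted p = 0.049). At this threshold 15.4% of all probe sets were called. With the 12 sampling points as a replicate block neither passed (limma adjusted p = 0.28 for CLE26 and 0.32 for CLE41). That fit had no term for each group at each time, so courses that differ between groups enter its spread. Its SE was 0.31 for CLE26 and 0.24 for CLE41. The fits within single days, given below, lacked those terms too. The CLE26 value held in 2 of 12 fits that each left out 1 sampling point, those without day 9 at ZT0 or day 10 at ZT16, and ranged from 0.37 without ZT0 of day 10 to 0.84 without ZT0 of day 9. The CLE41 value held in 3 of 12, those without day 10 at ZT4, ZT8 or ZT20, and ranged from -0.59 to -0.29, the last without ZT20 of day 9. Within day 10 the shift was 0.94 for CLE26 (limma adjusted p = 0.3) and -0.04 for CLE41 (limma adjusted p = 0.98), and within day 9 it was 0.28 (limma adjusted p = 0.84) and -0.85 (limma adjusted p = 0.16). CLE26 differed between LD and SD by 0.63 in vasculature and 0.02 in mesophyll. Its mesophyll level was close to background, so its shift mainly repeats the vein difference. CLE41 differed by -0.06 in vasculature and 0.38 in mesophyll, so its shift lay mainly in mesophyll.

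Age was compared within each group. Day 10 against day 9 gave no call for either gene in any group. Over all probe sets the share called was 0.669% in SD mesophyll, 0.11% in SD vasculature, 0.00916% in LD mesophyll and 0% in the other groups. The largest difference of these 2 genes was that of CLE26 in LD vasculature, 0.54 ± 0.22 (95% interval 0.04 to 1.03, limma adjusted p = 0.54), followed by CLE41 in LD vasculature, 0.35 ± 0.12 (95% interval 0.07 to 0.63, limma adjusted p = 0.48), and CLE41 in SD whole leaf, -0.26 ± 0.10 (limma adjusted p = 0.45).

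Of 47 listed CLE family genes (CLV3 and CLE1 to CLE46), 17 had a one-gene probe set and 13 passed the filter. CLE18, CLE21, CLE22 and CLE27 did not, with values of 1.501 to 3.21 over all groups. In vasculature against mesophyll the call found 4 of the 13 higher and none lower, in LD as in SD, against 12.7% of all probe sets higher in LD and 12.4% in SD. CLE26 and CLE41, chosen as vein genes, are 2 of the 4. The median difference of the 13 was -0.07 in LD and -0.09 in SD, against -0.005 and -0.003 over all probe sets tested. Besides CLE26 and CLE41 the higher members were CLE25, known for a peptide that moves from root to leaf on dehydration, with 1.68 ± 0.06 in LD and 1.85 ± 0.08 in SD, and CLE42, a close relative of the TDIF genes, with 1.79 ± 0.10 and 2.98 ± 0.09 (all limma adjusted p of 2.8e-11 or less). Of these 4 genes CLE26 had the largest difference in each day length and CLE41 the next.

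CLE25 and CLE42 were dim, and the filter kept them through the tissues where they were brighter. CLE25 had median intensities of 9.15 in LD vasculature, 2.43 in LD mesophyll and 3.31 in LD whole leaf, and of 13.1, 2.97 and 3.31 in the same tissues of SD. CLE42 had medians of 12.3, 2.77 and 13.6 in LD and of 29.4, 2.97 and 27.4 in SD. CLE42 did not differ from whole leaf in veins by the call (-0.07 ± 0.12 in LD and 0.26 ± 0.08 in SD), unlike CLE26, CLE41 and CLE25, the 3 members called higher there. It was called lower in LD than in SD vasculature, by 1.27 ± 0.11 (limma adjusted p = 8.3e-07, 0.728% of probe sets called lower), the only day length call among the 13 in any tissue.

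Among the other members, CLE45, the gene whose peptide also suppresses protophloem, was 0.67 ± 0.05 higher in LD veins and 0.82 ± 0.04 in SD veins than in mesophyll, under the minimum difference, with medians of 4.81 and 4.94 in LD and SD vasculature. CLE16 was the 1 member called lower in veins than in whole leaf (-1.48 ± 0.09 in LD and -1.40 ± 0.08 in SD), and it fell in mesophyll against whole leaf too (-1.31 and -1.35), as did CLE26 and CLE42. CLE16, CLE20, CLE40, CLE43, CLV3, CLE1 and CLE14 differed between veins and mesophyll by -0.26 (CLE40) to -0.00496 (CLE43) in LD and by -0.24 (CLE40) to -0.06 (CLE16) in SD, and none passed the call. CLV3, CLE1, CLE14 and CLE40 stayed between 1.84 and 5.19 in every array of every group, close to the filter value.

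**Figure D4:**
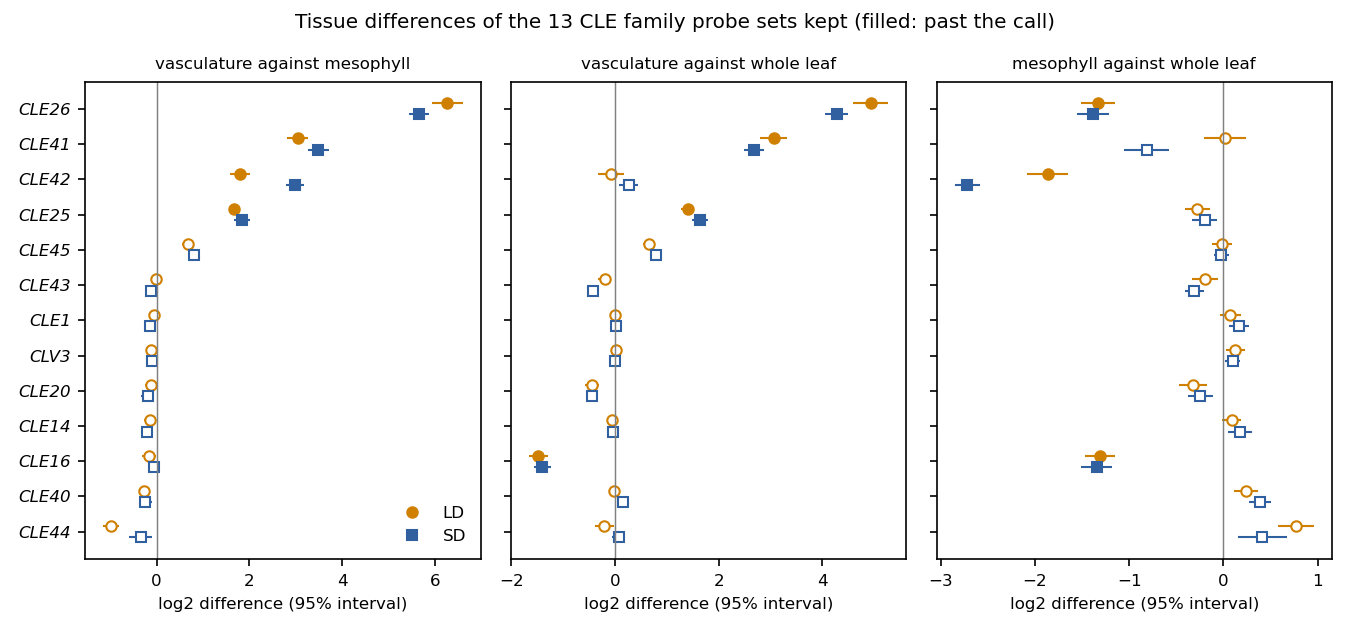
Log2 differences between tissues for the 13 CLE family probe sets that passed the filter, with 95% intervals; filled symbols passed the call, circles are LD and squares SD. CLE26 and CLE41 lie farthest to the right in vasculature against mesophyll, with 6.27 and 3.04 in LD, while CLE44 lies at -0.98.

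CLE44, which encodes the same TDIF peptide as CLE41, did not share its vein level but had a similar daily course in LD. Its difference of vasculature over mesophyll was -0.98 ± 0.08 in LD (limma adjusted p = 6.1e-09) and -0.34 ± 0.12 in SD (limma adjusted p = 0.017), both under the minimum of 1. In LD vasculature its 2 arrays gave 7.13 and 7.25 at ZT0, 5.19 and 5.42 at ZT4, 7.05 and 10.7 at ZT8, 20.5 and 20.7 at ZT12, 28.8 and 31.0 at ZT16, and 16.4 and 22.2 at ZT20. The highest time was ZT16, as for CLE41 in the same samples. Its cosine fits passed in LD vasculature (amplitude 1.18 ± 0.07, peak ZT 15.7 ± 0.22 h, limma adjusted p = 3.4e-05), LD mesophyll (0.65 ± 0.15, ZT 16.4 ± 0.86 h, limma adjusted p = 0.025) and LD whole leaf (0.89 ± 0.09, ZT 16.7 ± 0.38 h, limma adjusted p = 0.00044). None of its SD fits passed, with limma adjusted p between 0.38 and 0.63. A cosine of 24 h may miss a course with more than 1 rise. In SD whole leaf the 2 arrays of CLE44 gave 20.3 and 22.8 at ZT4, 3.91 and 4.26 at ZT12, and 16.3 and 24.2 at ZT20.

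Few genes of the known pathways could be set beside their ligands. Of 32 listed genes around the TDIF pathway, 3 had one-gene probe sets, and the receptor PXY itself was not analysed here. The filter kept 4 of the 5 probe sets of those 3 genes. None of the 4 passed in vasculature against mesophyll, where 25.5% of all probe sets were called in LD and 25.1% in SD. All 4 were higher in veins, by less than the minimum difference of 1. For 1 PXL2 probe set no mesophyll or whole leaf array was above the filter value. The filter thus kept it through veins alone, which fixed its direction. MOL1, a receptor-like kinase that restrains cambium growth, differed by 0.53 ± 0.06 in LD and 0.70 ± 0.06 in SD. The PXY-like receptor kinase gene PXL1 differed by 0.56 ± 0.08 and 0.55 ± 0.11, and PXL2 by 0.80 ± 0.08 and 0.62 ± 0.09 in 1 probe set and 0.19 ± 0.05 and 0.15 ± 0.05 in the other. PXL1 fell in SD mesophyll against SD whole leaf by 1.25 ± 0.11 (limma adjusted p = 1.1e-07). Of 23 genes listed for CLE perception in the protophloem, only OPS, a gene that promotes protophloem formation, had a one-gene probe set, and the others were not analysed here. It was 0.99 ± 0.07 higher in LD veins than in LD mesophyll, just under the minimum, and rose by 1.11 ± 0.10 in SD veins (limma adjusted p = 3.8e-08). OPS was dim, and the filter kept it through the vein arrays. Its values were 1.88 to 2.57 in LD mesophyll and 1.83 to 2.90 in SD mesophyll, against 3.28 to 8.79 and 4.12 to 9.62 in vasculature. A vein excess of OPS was thus favoured by the filter.

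Other vein genes were tested in the same comparison. LHW, a transcription factor gene of vascular cell divisions, was 3.43 ± 0.11 higher in LD and 3.62 ± 0.14 higher in SD vasculature than in mesophyll, and SWEET11, a sucrose exporter gene of the phloem, 2.39 ± 0.12 and 2.93 ± 0.20. SWEET13, of the same family, was higher by 1.24 and 1.57. IRX10, which acts in xylan synthesis of secondary walls, was higher by 3.16 ± 0.12 and 2.39 ± 0.12 (limma adjusted p of 1.6e-09 or less for LHW, SWEET11 and IRX10). Of the 4 phloem markers 3 were higher in LD and 4 in SD, and of the 4 xylem and procambium markers, which include LHW as well, 2 and 3, while 12.7% of all probe sets were called higher in LD and 12.4% in SD. OPS, which the filter kept through veins, is 1 of the 4 phloem markers. Against whole leaf 2 of the 4 xylem and procambium markers were called higher in LD veins, as were 9.12% of all probe sets. In SD veins 2 were called higher and 1 lower, against 9.59% and 11.3% of all probe sets.

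The 2 genes were alike in where they were high but not in when. Over the 72 arrays their log2 levels correlated with Pearson's r = 0.92, a value set by the tissue differences. Their deviations from the 6 group means correlated with r = 0.003, and within single groups of 12 arrays r lay between -0.34 and 0.14. These are descriptions, since arrays of a group share their tissue and day length. Among the other 12139 one-gene probe sets, the levels of CLE26 were followed most closely by AT2G28810 and AT3G19620 (r = 0.979 each), AT2G27140 (0.978), AT1G10380 (0.976) and AT4G24450, listed as PWD (0.975), all higher in veins than in mesophyll, by 4.20 to 8.11. Those of CLE41 were followed most closely by AT3G53190 (0.957), ATL4H and AT3G56810 (0.954 each), AT1G53645 (0.953) and AT1G28400 (0.952), which were higher in veins by 1.82 to 6.0002. CLE41 itself ranked 298th among the neighbours of CLE26, and CLE26 ranked 130th among those of CLE41.

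Once the group means were removed, other genes came first. The deviations of CLE26 were nearest to those of AT5G48480 (r = 0.79), AT1G56710 (0.68), AT1G23530 (0.68), AT4G24015 (0.67) and AT5G35735 (0.65), and those of CLE41 to AT5G63940 (0.72), AT4G33140 (0.70), AT3G52470 (0.68), the isocitrate dehydrogenase gene IDH-VI (0.66) and AT5G53070 (0.66). These genes were not all vein genes: AT5G35735 was lower in veins than in mesophyll, by 5.98 in LD and 5.38 in SD, and AT3G52470 by 2.21 and 2.23. The lists from levels and from deviations shared no gene for either CLE26 or CLE41.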

How the data were processed

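RNA of 72 samples was hybridised to 1 single-colour array each, and the labels' titles gave each sample its tissue, day length, time and day. The authors deposited linear-scale intensities computed by GCRMA, per the submitters' processing notes. No source used here gives the version of that tool or the probe annotation it used. It corrects background by probe sequence and normalizes arrays to one another, so it can pull dim genes together and would remove a shift shared by most genes.

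Of 28583 probe sets, 16722 were annotated with 1 gene, 759 with several and 11102 were not listed; 16574 had an Entrez ID found in RefSeq TAIR10.1. The filter kept the 21827 probe sets with an intensity over 2.77 (the 40th percentile of the whole table) in 6 or more arrays. Values were analysed as log2(intensity + 1) with limma 3.58.1 in R 4.3.3. Fitted differences are on that scale and understate changes of dim genes. Tissue and day length contrasts used a term for each group and time, averaged over the 6 times. Rhythms used a cosine and a sine of 24 h, and HAYSTACK, which the series' design names, was not used here. All tests were two-sided, with Benjamini-Hochberg adjustment over all kept probe sets, and the number of arrays limits their precision. The fits were run on simulated data with known changes, normal noise drawn separately for each value, and rhythms that were pure cosines. Those runs cannot speak to noise shared between probe sets or to courses of other shapes. Figures were drawn with matplotlib 3.10.9.

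The genes, the gene lists and the tests were chosen with earlier results of these data known. Named besides CLE26 and CLE41 were all CLE genes with a one-gene probe set, members of the lists that passed a tissue call in both day lengths and up to 6 others per list, and the 5 one-gene probe sets most correlated with each gene over the 72 arrays, by level and by deviation from the group means. FDH, PS1 and PTL were left out of the lists because the annotated gene of that symbol is another one. No sequence of the peptides or promoters was used here. Alternatives were other pseudocounts, no filter, median centring, quantile normalization, all 72 arrays in 1 fit, no minimum difference, the sampling point as a block, single days, the 6 times as levels, a term for day, and leaving out each sampling point.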

Additional observations from a re-analysis of the deposited data

Results flagged for a closer look

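The excess of veins over mesophyll differed between long and short days for both genes in the fit without a block, with opposite signs. For CLE26 the excess in LD minus that in SD was 0.61 on the log2 scale (limma adjusted p = 0.036), and for CLE41 it was -0.44 (limma adjusted p = 0.049). Both were close to the threshold and lost their call in most fits that left out 1 sampling point, with limma adjusted p up to 0.13 for CLE26 and 0.22 for CLE41. With the replicate block, in place of a term for each group and time, neither passed.

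The daily course of CLE41 in vasculature differed between long and short days, by a vector of 0.78 on the log2 scale (limma adjusted p = 0.023). The call was lost without ZT16 of day 9 (0.83, limma adjusted p = 0.051) or of day 10 (0.72, limma adjusted p = 0.077).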

How the results depend on the processing

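Of 1168 values recomputed for 90 results, 1055 kept their direction and side of the threshold, 76 lost a call, 18 gained one and 19 changed sign. All 19 were differences not called either way, and no called tissue difference of veins changed. Unless a value shows it, the cause of a change was not tested.

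The vein excess of CLE26 by day length was 0.60 after quantile normalization (limma adjusted p = 0.053), 0.28 within day 9 and 0.94 within day 10. It was 0.37 to 0.84 over fits that each left out 1 sampling point. That of CLE41 was -0.45 with no pseudocount, -0.33 with a pseudocount of 16, -0.44 with no filter, -0.43 after median centring, -0.85 within day 9, -0.0368 within day 10 and -0.59 to -0.29 with single sampling points left out, and none of the first 6 passed. Replicate numbers mark time and day, and same-numbered samples deviated together with r of -0.22 to 0.15, over 0.1 in 1 case only, so they were not taken as pairs. With the replicate block, in place of a term for each group and time, the interactions stayed at 0.61 (limma adjusted p = 0.28) and -0.44 (limma adjusted p = 0.32). Calls over all probe sets numbered 1446 against 3362. With the block the SD course differences of veins and mesophyll passed, for CLE26 (0.96, limma adjusted p = 0.037) and CLE41 (0.54, limma adjusted p = 0.045). The block changed no other call of either gene among the tissue, day length and course contrasts it was run on.

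The rhythm of CLE41 in LD whole leaf did not pass with a pseudocount of 16 (0.35), no filter (0.53), centring (0.49), quantile normalization (0.53), times as levels (0.57), a day term (0.53) or no ZT0 arrays (0.52). That in LD vasculature did not pass with 16 (0.62), no filter (0.66), times as levels (0.71) or no ZT0 arrays (0.63). The no-filter amplitudes are the same as those with the filter. Without it both the adjustment and the variance estimate shared between probe sets draw on more probe sets. Their parts in the losses were not tested. CLE26 passed in SD vasculature with no pseudocount (0.93), times as levels (1.17) or no ZT0 arrays (0.58) and in LD whole leaf with times as levels (0.51), and failed in SD whole leaf with no ZT0 arrays (0.35). Leaving out 1 array gave CLE26 amplitudes of 0.35 to 0.49 in LD whole leaf, 0.72 to 1.08 in SD vasculature and 0.43 to 0.58 in SD whole leaf. It gave CLE41 amplitudes of 0.74 to 0.92 in LD mesophyll, 0.58 to 0.73 in LD vasculature and 0.44 to 0.58 in LD whole leaf. Course differences, left out likewise as an alternative added after seeing the data, were 0.72 to 0.87 for CLE41 between day lengths in veins. They were 0.50 to 0.62 for CLE41 and 0.75 to 1.10 for CLE26 between veins and mesophyll in SD, and 0.64 to 1.10 for CLE26 in LD.

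A pseudocount of 16 ended the calls of CLE26 in mesophyll against whole leaf (-0.42 in LD, -0.45 in SD) and of CLE41 at ZT8 in whole leaf (-0.78). With no minimum difference, CLE41 passed in SD mesophyll against whole leaf (-0.81, and -1.05 within day 9 with the minimum), between day lengths in whole leaf (-0.44) and mesophyll (0.38), and at ZT12 in mesophyll (0.94), and CLE26 between day lengths in vasculature (0.63). Signs changed for CLE26 in mesophyll at ZT0 (0.0206) and ZT20 (0.0257) and CLE41 at ZT4 (0.0109) after centring, CLE41 at ZT4 after quantile normalization (0.0778), CLE41 in LD mesophyll against whole leaf within day 10 (-0.0564) or with a sampling point left out (-0.0802 to 0.11). They also changed between day lengths for CLE26 in whole leaf (0.10 within day 9, -0.13 to 0.0573 left out) and mesophyll (-0.0879 within day 10, -0.0385 to 0.0755 left out) and CLE41 in vasculature (0.18 within day 10, -0.15 to 0.034 left out).

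Counts of calls over all probe sets moved too. A pseudocount of 16 gave 3168 against 5570 for LD veins over mesophyll, and 65 to 3168 over all tissue and day length means against 266 to 5570. No minimum difference gave 3952 to 16031. Single days gave 509 and 546 interactions. Rhythms in LD numbered 5555 against 2899 in mesophyll, 1060 against 689 in vasculature and 4228 against 2079 in whole leaf with times as levels, and 248 in LD vasculature with no ZT0 arrays. Leaving out 1 array gave as few as 386 in LD vasculature, and leaving out 1 sampling point as few as 310 course differences between day lengths in veins, against 1144, 51 in mesophyll, against 504, and 530 in whole leaf, against 1446, each time without ZT16 of day 10. Those in mesophyll numbered 328 with a pseudocount of 16, 300 with no filter and 989 with the replicate block, which gave 2235 in whole leaf. At single times each group had 2 arrays, and CLE26 in mesophyll lay near background.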
